A study of Mus musculus with 6 samples.

Results

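Receptors for cytokines and growth factors were examined in mouse marrow cells selected for a renin-driven green fluorescent protein (GFP) and in unselected marrow. The 10 listed genes were Il7r, Il2rg, Il4ra, Il21r, Il6ra, Il10ra, Csf2ra, Csf2rb, Csf3r and Csf1r. Of these, 9 had a probe set that carries that symbol alone and are described here, out of 18193 genes on the array, and Il2rg was not analysed here. The list was chosen with earlier results of these data known. Its symbols were matched to probe sets through the platform's annotation, and each gene was read by its brightest probe set over the 6 arrays.

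All mice were adults of 3 to 6 months, of both sexes, hemizygous for the transgene Tg(Ren1-GFP)2Kwg, with no other treatment named. Each biological replicate was a pool of femur marrow from 4 to 5 animals, and GFP positive cells sorted from it (sorted, n = 3) and unsorted marrow (presort, n = 3) carry the same replicate number, called the pool here. Scatter gates removed erythrocytes and debris from the sorted cells only, and the lower GFP limit let in 0.1% of cells of animals without the transgene. The presort samples still held the GFP positive cells.

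Most of these receptors are class I cytokine receptors, which have no kinase of their own and signal through Janus kinases (JAKs) and STAT transcription factors. Interleukin 7 receptors are needed in mouse marrow for early B cell development. Granulocyte colony-stimulating factor acts on neutrophils and their precursors. Receptors for granulocyte-macrophage colony-stimulating factor (GM-CSF) are found on myeloid cells, and Csf1r is a receptor tyrosine kinase of monocytes and macrophages.

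The 4 colony-stimulating factor receptor genes and Il6ra were lower in the sorted samples, and the other interleukin receptors were higher. Of the 9 genes, 4 rose (Il7r, Il21r, Il10ra and Il4ra) and 5 fell (Csf3r, Csf1r, Il6ra, Csf2rb and Csf2ra), by limma with Benjamini-Hochberg adjusted p under 0.05 over all genes. Over all genes 14.5% were called higher and 18.1% lower, and 32.6% in either direction. The median difference (log2) was -2.15 over the 9 genes, against -0.0021 for all genes. At least 2-fold were 3 of the rises and all 5 falls, against 5.80% and 10.3% of all genes. The 3 sorted arrays lay above the 3 presort arrays for the 4 genes that rose, as for 20.9% of all genes, and below them for the 5 that fell, as for 23.6%. Values below are log2 intensities, which were not compared between genes because probe sets differ in brightness. In whole samples, fewer cells of a type and less RNA per cell cannot be told apart.

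**Figure D1:**
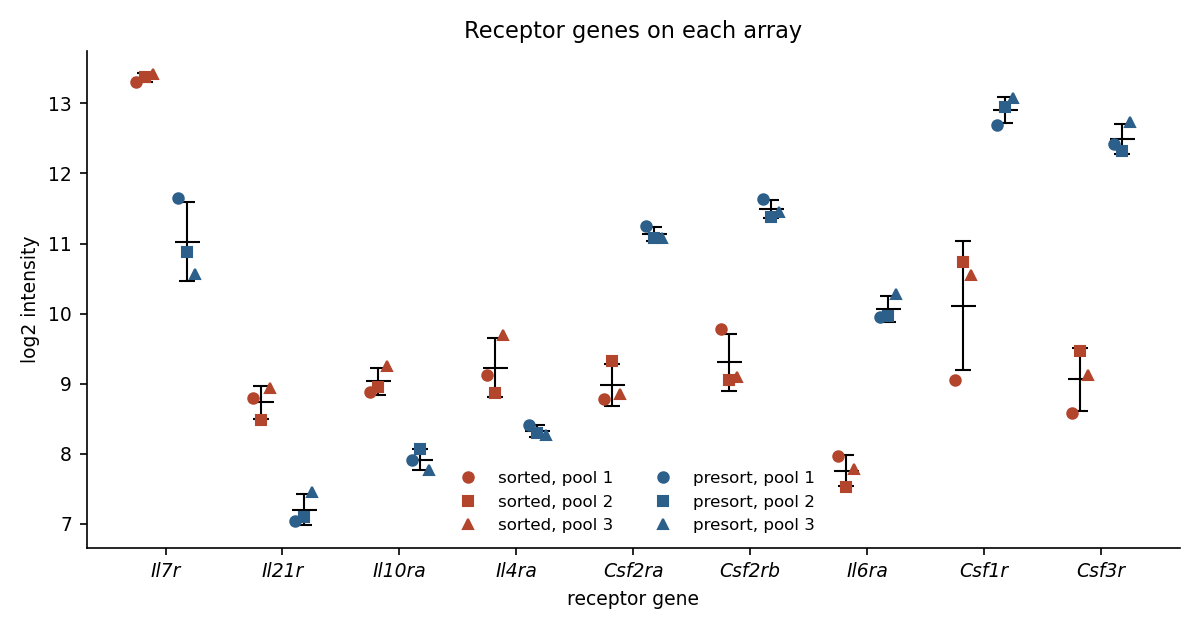
Log2 intensity of the 9 receptor genes (vertical axis, linear in log2) on each array, sorted samples at the left and presort samples at the right of each gene, with a symbol for each pool. Bars give mean and SD (n = 3); no gene has sorted and presort arrays that overlap, and heights are not comparable between genes.

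Cell type markers and a 3' to 5' control of RNA quality were read on the same arrays. B lineage markers (9 of 9 measured) were higher in sorted samples, with summed intensities of 72816 to 78575 in sorted and 10474 to 21259 in presort arrays. All 9 measured neutrophil markers were lower, with sums of 56250 to 104511 in sorted and 187872 to 194505 in presort arrays, and so were all 10 monocyte and macrophage markers, with sums of 1675 to 3847 in sorted and 16342 to 22268 in presort arrays. T cell markers were called lower for 2 of 10 and higher for none, with sums of 660 to 922 in sorted and 940 to 1302 in presort arrays. None of these markers was at 0, since the lowest deposited intensity is 9.71. The beta-actin 3' probe set exceeded its 5' probe set by 2.05 ± 0.98 in sorted and 0.96 ± 0.15 in presort samples (SD, log2, n = 3; two-sided exact permutation p = 0.1, the smallest that 3 against 3 allow). Sorted replicate 1 had the highest difference, 3.17.

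Promoter windows of the 250 bases before the annotated start were read for 6 of the 9 genes (Il7r, Il4ra, Il21r, Il6ra, Csf2ra and Csf3r). They come from RefSeq entries of GRCm38.p6. No window was read here for Il10ra, which rose, or for Csf2rb and Csf1r, which fell. Windows are shown for the 2 strongest rises and the 3 falls among the 6 genes read. They run 5' to 3' on the gene's strand, with capitals for motif matches on either strand. The windows are chr15:9529877-9530126 (minus strand) for Il7r, chr7:125603179-125603428 (plus) for Il21r, chr4:126024409-126024658 (plus) for Csf3r, chr3:89913197-89913446 (minus) for Il6ra and chr19:61228419-61228668 (minus) for Csf2ra.
Il7r: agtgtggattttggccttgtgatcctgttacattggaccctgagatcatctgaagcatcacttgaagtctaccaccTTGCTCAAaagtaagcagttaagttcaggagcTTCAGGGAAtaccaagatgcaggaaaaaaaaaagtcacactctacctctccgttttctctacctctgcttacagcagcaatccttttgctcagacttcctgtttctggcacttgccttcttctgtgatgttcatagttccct
Il21r: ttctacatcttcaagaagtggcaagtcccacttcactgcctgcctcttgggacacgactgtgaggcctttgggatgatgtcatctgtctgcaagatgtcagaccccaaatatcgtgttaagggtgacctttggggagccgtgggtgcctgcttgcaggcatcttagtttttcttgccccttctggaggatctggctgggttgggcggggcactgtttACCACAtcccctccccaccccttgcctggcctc
Csf3r: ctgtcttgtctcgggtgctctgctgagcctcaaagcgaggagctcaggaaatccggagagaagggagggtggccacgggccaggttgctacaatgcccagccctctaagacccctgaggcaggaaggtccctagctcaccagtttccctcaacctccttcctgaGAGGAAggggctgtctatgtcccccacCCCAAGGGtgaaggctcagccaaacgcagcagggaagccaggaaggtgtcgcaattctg
Il6ra: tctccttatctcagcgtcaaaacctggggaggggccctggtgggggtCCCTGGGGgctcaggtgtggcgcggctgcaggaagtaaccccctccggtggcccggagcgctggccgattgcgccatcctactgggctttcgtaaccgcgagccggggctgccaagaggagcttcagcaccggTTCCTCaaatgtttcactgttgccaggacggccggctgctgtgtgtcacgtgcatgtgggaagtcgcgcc
Csf2ra: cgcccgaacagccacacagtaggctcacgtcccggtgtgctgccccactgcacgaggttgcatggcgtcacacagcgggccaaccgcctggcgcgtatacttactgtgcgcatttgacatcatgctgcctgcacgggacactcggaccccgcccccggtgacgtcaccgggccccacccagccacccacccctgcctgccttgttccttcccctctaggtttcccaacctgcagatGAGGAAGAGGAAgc

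The motifs searched were GAGGAA (read by PU.1 and related factors), TTCNNNGAA (STAT factors), TTGCNNAA (C/EBP factors), CCCNNGGG (EBF1) and TGTGGT (RUNX factors). GAGGAA was in the windows of 3 of the 6 genes, which were Csf3r (86 bases before the start), Il6ra (70 bases) and Csf2ra (14 and 8 bases). All 3 fell in sorted samples, and 23.3% of all 32851 windows hold this motif. The Il7r window held 1 match each of TTCNNNGAA, 142 bases before the start, and TTGCNNAA, 174 bases before it. Those motifs are in 7.02% and 9.56% of all windows. CCCNNGGG was found for Il6ra and Csf3r (11.8% of all windows) and TGTGGT for Il21r (14.0%), and the window of Il4ra held none of these motifs.

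Il7r encodes the alpha chain of the interleukin 7 receptor, which also serves the receptor of TSLP. It stood at 13.30, 13.38 and 13.42 in sorted replicates 1, 2 and 3, against 11.65, 10.87 and 10.56 in presort replicates 1, 2 and 3. The sorted arrays lay close together, and the spread was in the presort arrays, of which replicate 1 was highest. The difference was 2.34 ± 0.25 (SE; 5.07-fold; limma adjusted p = 0.000248). A second probe set, 1448576_at, gave 9.84, 11.23 and 11.15 in sorted and 9.03, 8.39 and 8.29 in presort samples. It rose by 2.17 ± 0.39 (SE; limma adjusted p = 0.00588 over all probe sets), a call lost without pool 2 (1.84, adjusted p = 0.0724) or pool 3 (1.83, 0.0796), and here sorted replicate 1 was the low array. By pool the Il7r difference was 1.65, 2.51 and 2.86, beside medians of 1.81, 2.47 and 2.71 for the B lineage markers in pools 1, 2 and 3. The part of B lineage content in the rise was not tested.

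Il21r, the specific chain of the interleukin 21 receptor of lymphocytes, has 1 probe set. It stood at 8.79, 8.48 and 8.94 in sorted and 7.04, 7.10 and 7.45 in presort samples. All sorted arrays lay above all presort arrays, and the difference was 1.54 ± 0.16 (SE; 2.90-fold; limma adjusted p = 0.000235), with 1.74, 1.38 and 1.49 in pools 1, 2 and 3.

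Il4ra, the chain that binds interleukin 4 and, with Il13ra1, takes part in interleukin 13 signalling, is the neighbour of Il21r on chromosome 7 with no protein-coding gene between them. It stood at 9.13, 8.87 and 9.69 in sorted and 8.42, 8.30 and 8.26 in presort samples, and sorted replicate 3 was the highest. It rose by 0.90 ± 0.20 (SE; 1.87-fold; limma adjusted p = 0.00967), the smallest difference among the 9 genes, with 0.71, 0.57 and 1.43 in pools 1, 2 and 3. Without pool 3 the difference was 0.64 and the call was lost (adjusted p = 0.0514), as it was with the mean of its 3 probe sets (0.48, adjusted p = 0.0714). The other Il4ra probe sets, 1447858_x_at and 1423996_a_at, did not pass, at 0.27 ± 0.12 and 0.28 ± 0.33 (SE). On 1423996_a_at the arrays overlapped, with 6.58, 6.11 and 7.53 in sorted and 6.48, 6.54 and 6.38 in presort samples, so that sorted replicate 3 was the highest array and sorted replicate 2 the lowest.

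Il10ra encodes the ligand-binding chain of the interleukin 10 receptor, a class II cytokine receptor. It stood at 8.88, 8.96 and 9.25 in sorted and 7.91, 8.07 and 7.77 in presort samples. The groups did not overlap, and Il10ra rose by 1.12 ± 0.14 (SE; 2.17-fold; limma adjusted p = 0.000533). Its dimmer probe sets did not pass: 1437808_x_at stood at 0.33 ± 0.17 and 1456173_at at 0.02 ± 0.12 (SE), and the mean over all 3 probe sets rose by 0.49 (adjusted p = 0.0111). The dimmest, 1456173_at, had means of 4.29 in sorted and 4.27 in presort samples, under the array median of 6.04.

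Il6ra, the chain that binds interleukin 6 before the signal passes through gp130, went the other way. It stood at 7.96, 7.53 and 7.78 in sorted and 9.95, 9.96 and 10.28 in presort samples. The groups were far apart, and the difference was -2.31 ± 0.15 (SE; 4.96-fold lower in sorted; limma adjusted p = 2.84e-05). The fall was of like size in the pools, at -1.99, -2.44 and -2.51 in pools 1, 2 and 3. The second Il6ra probe set, 1422270_a_at, did not pass: it read 6.56, 6.99 and 6.72 in sorted and 6.51, 6.94 and 6.96 in presort samples, a difference of -0.05 ± 0.17 (SE; adjusted p = 0.889, 95% interval -0.45 to 0.35). The mean of both probe sets gave -1.18 (adjusted p = 0.000192).

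**Figure D2:**
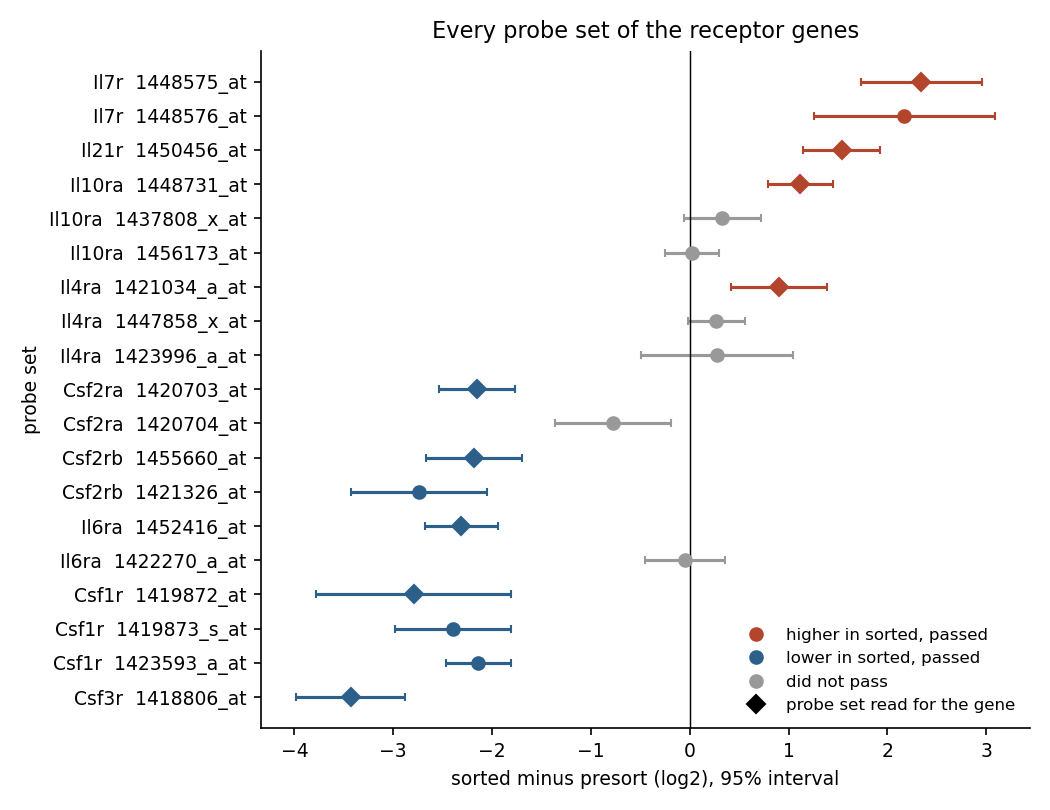
Difference of sorted minus presort samples (log2, horizontal axis) with its 95% interval for each of the 19 probe sets of the 9 receptor genes, diamonds marking the probe set read for a gene. Of the 19, 5 were called higher and 8 lower; the 6 that were not called belong to Il10ra, Il4ra, Csf2ra and Il6ra.

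At the level of probe sets, 5 of 19 rose and 8 fell, against 13.0% and 12.9% of 45037 probe sets. The single-symbol probe sets of Il7r, Csf2rb and Csf1r all passed in the direction of their gene. Those of Il4ra, Il10ra, Il6ra and Csf2ra did not, so the size of the change in these genes depends on the probe set that is read.

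Csf3r, the receptor of granulocyte colony-stimulating factor, fell most of the 9 genes. Its single probe set read 8.58, 9.47 and 9.13 in sorted and 12.42, 12.32 and 12.73 in presort samples. Every sorted array lay at least 2.85 below every presort array. The difference was -3.43 ± 0.23 (SE; 10.8-fold lower in sorted; limma adjusted p = 2.82e-05), and Csf3r ranked 57 among all genes ordered from the largest fall. By pool it was -3.84, -2.85 and -3.61, beside medians of -2.0, -1.42 and -2.32 for the neutrophil markers, and both were nearest to 0 in pool 2. So were the medians of monocyte and macrophage markers (-2.36) and of eosinophil, basophil and mast cell markers (-2.34). The other lists with markers called lower were nearest to 0 in pool 1 or pool 3. The part of neutrophil content in the fall was not tested.

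Csf1r encodes the receptor of colony-stimulating factor 1. It stood at 9.05, 10.74 and 10.56 in sorted and 12.70, 12.95 and 13.07 in presort samples. Sorted replicate 1 lay more than 1 below the other sorted arrays, and it was also the array with the highest beta-actin 3' to 5' difference. The Csf1r difference was -2.79 ± 0.40 (SE; 6.92-fold lower in sorted; limma adjusted p = 0.00114). Without sorted replicate 1 it was -2.26 (adjusted p = 5.59e-05), and with the beta-actin difference as a covariate -1.76 (adjusted p = 0.00032). The other probe sets of Csf1r gave -2.40 ± 0.25 (1419873_s_at) and -2.14 ± 0.14 (1423593_a_at, SE), where sorted replicate 1 was nearer to the other sorted arrays. The last of these read 7.71, 7.98 and 8.11 in sorted and 9.91, 10.11 and 10.19 in presort samples. By pool Csf1r stood at -3.65, -2.21 and -2.51, beside medians of -3.08, -2.36 and -2.80 for the monocyte and macrophage markers.

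**Figure D3:**
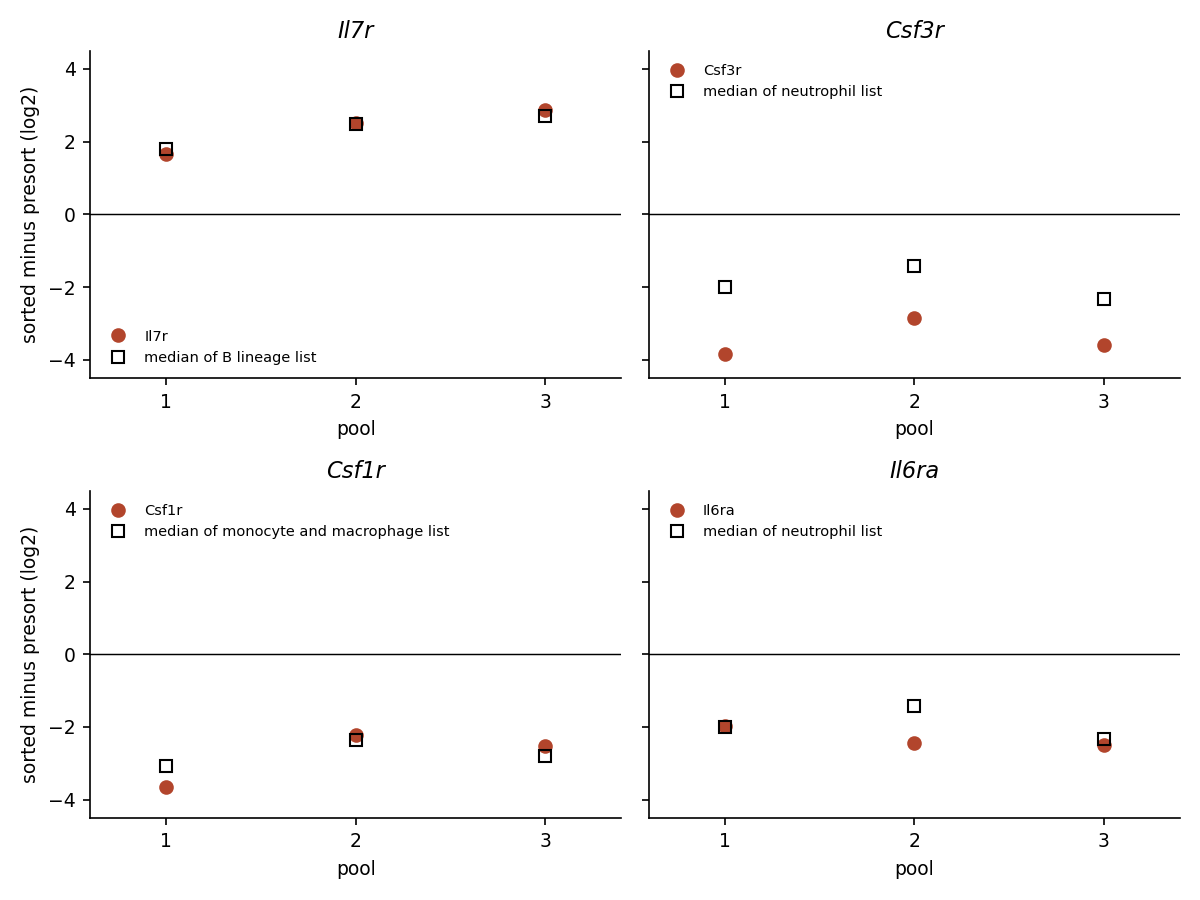
Sorted minus presort difference (log2, vertical axis) in each pool for Il7r, Csf3r, Csf1r and Il6ra (filled circles), with the median difference of a cell type marker list in the same pool (open squares). On the probe sets read for Il7r, Csf3r and Csf1r, the pool with the difference nearest to 0 is the same as for the markers. The other Csf1r probe sets, not shown, were nearest to 0 in pool 3 (1419873_s_at -2.07, 1423593_a_at -2.08), and the monocyte and macrophage markers in pool 2. For Il6ra it is pool 1, and for the neutrophil markers pool 2.

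Csf2ra and Csf2rb encode the chains of the GM-CSF receptor: Csf2ra binds GM-CSF, and Csf2rb is the beta common chain that the interleukin 3 and interleukin 5 receptors also use. Csf2ra stood at 8.78, 9.32 and 8.85 in sorted and 11.25, 11.08 and 11.08 in presort samples, a difference of -2.15 ± 0.16 (SE; 4.45-fold lower in sorted; limma adjusted p = 4.28e-05). Csf2rb stood at 9.78, 9.05 and 9.10 in sorted and 11.63, 11.38 and 11.45 in presort samples, a difference of -2.18 ± 0.20 (SE; 4.53-fold lower; adjusted p = 0.000116). Neither gene had sorted and presort arrays that overlapped, and sorted replicate 1 was the lowest sorted array for Csf2ra and the highest for Csf2rb.

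The remaining probe sets of these chains differed in size. The second Csf2rb probe set, 1421326_at, fell by 2.74 on the log2 scale, with 6.78, 5.50 and 6.29 in sorted and 8.97, 8.88 and 8.95 in presort samples. The second Csf2ra probe set, 1420704_at, stood at -0.78 ± 0.25 (SE) and did not pass (adjusted p = 0.0597), but did with the replicate number as a block (0.0416). Csf2rb has a close copy beside it on chromosome 15, Csf2rb2, so probe sets of the 2 genes may read each other's RNA. The probe set of Csf2rb2 stood at -2.0 ± 0.30 (SE; adjusted p = 0.00258 over all probe sets), and 1450200_s_at, annotated to both genes, at -0.39 ± 0.13 (adjusted p = 0.0715).

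Chains that form 1 receptor were compared by their log2 ratio on each array, in 3 pairs with both chains measured. The ratio of Il6ra over Il6st, the gp130 chain, was -1.79, -1.71 and -1.59 in sorted and 1.06, 1.25 and 1.5 in presort samples, a change of -2.96. Il6st itself rose by 0.65 ± 0.15 (SE; limma adjusted p = 0.0119), a call lost without presort replicate 2 (0.61, adjusted p = 0.0519), without pool 3 (0.69, 0.0886) and with the beta-actin covariate (0.36, 0.108). The ratio of Il10ra over Il10rb, its partner chain, was -0.94, -0.74 and -0.45 in sorted and -1.76, -1.80 and -2.08 in presort samples, a change of 1.17. Il10rb did not pass, at -0.05 (adjusted p = 0.779), a sign that turned with each array centred on its median (0.17). Both changes had a two-sided exact permutation p = 0.1, the smallest that 3 against 3 allow (0.15 adjusted over 3 pairs). The ratio of Csf2ra over Csf2rb was -1.0, 0.27 and -0.25 in sorted and -0.38, -0.30 and -0.37 in presort samples, so that the sorted arrays lay on both sides of presort (change 0.03, two-sided exact permutation p = 0.9, 0.9 adjusted). Averaging each chain over its probe sets gave changes of -1.5 for Il6ra over Il6st, 0.49 for Il10ra over Il10rb and 0.99 for Csf2ra over Csf2rb.

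For each gene, the other named gene with the nearest profile over the 6 arrays was sought by the root mean square distance between profiles centred on their means, as a description with no test. The nearest match was Galnt12 to Il10ra, at a distance of 0.0239 on the log2 scale, with 8.29, 8.37 and 8.62 in sorted and 7.32, 7.43 and 7.13 in presort samples. For Il7r it was Jakmip1 (0.0880), which differed by 2.31 between sorted and presort samples. Csf3r was nearest to Slc11a1, a metal transporter of phagocytes (0.113), which differed by -3.40. Csf1r was nearest to Nuf2 (0.120), Csf2rb to Uck2 (0.0438), Csf2ra to Frrs1 (0.0757), Il6ra to Cenpu (0.0932), Il21r to Zfp317 (0.119) and Il4ra to Pgap1 (0.104).

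Other genes of cytokine signalling were taken from 11 lists, of which 84 of 90 genes were measured. Of these, 12 were higher and 23 lower in sorted samples, and their median difference was -0.06, where 14.5% of all genes were called higher and 18.1% lower. With each array centred on its median 16 were higher and 17 lower, and without pool 3, 5 were higher and 17 lower.

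Among the other chains of the gamma chain family and of the interleukin 13 and TSLP receptors, 1 of 7 rose and 2 fell. Over all genes the shares were 14.5% and 18.1%. Il2ra, the alpha chain of the interleukin 2 receptor (CD25), rose more than any of the 9 listed receptors. It stood at 11.06, 9.77 and 10.04 in sorted and 7.58, 6.21 and 6.08 in presort samples. Replicate 1 was the highest in both groups, and the groups did not overlap. The difference was 3.66 ± 0.46 (SE; 12.7-fold; limma adjusted p = 0.000517), and 2.70 with the mean of its probe sets. Il13ra1, which pairs with Il4ra, read 4.48, 4.86 and 5.18 in sorted and 6.71, 7.55 and 6.96 in presort samples (-2.24 ± 0.25, SE; adjusted p = 0.000291). Crlf2, which pairs with Il7r in the TSLP receptor, fell by 0.75 ± 0.12 on the log2 scale (SE; adjusted p = 0.00181), while Il7r rose.

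Receptors of other growth factors and of interleukins 1 and 18 were mostly lower, where 18.1% of all genes were called lower. Of 5 further growth factor receptors 4 fell, led by Kit, the stem cell factor receptor, at -3.28 ± 0.20 (SE; -1.83 averaged over its probe sets), and Epor, the erythropoietin receptor, at -3.07 ± 0.16. Erythroid markers, a list that holds Epor, were lower for 7 of 7 measured (median -2.57), as were eosinophil, basophil and mast cell markers for 10 of 10 (median -2.71) and stem and progenitor markers, a list that holds Kit and Flt3, for 5 of 9. Their part in these falls was not tested. Kit read 6.72, 6.12 and 6.32 in sorted and 9.46, 9.58 and 10.00 in presort samples. Flt3 stood at -0.80, a call lost without pool 2 (-0.75, adjusted p = 0.0507). All 6 measured genes of the interleukin 1 and 18 receptor family fell, with a list median of -1.97. The count was 5 of 6 without pool 2 or pool 3, under the other probe set rules, and with the beta-actin covariate. The largest falls were those of Il18rap at -3.09, Il18r1 at -2.55, and Il1r2, a decoy receptor for interleukin 1, at -2.45. Il1rl2 stood at -1.5, but at -0.06 without probe sets ending in _x_at or _s_at (adjusted p = 0.838), and its call was also lost without pool 2 (-1.43, 0.0570) and with the beta-actin covariate (0.0502). Il1r1 stood at -0.84, a call lost without pool 3 (-0.77, adjusted p = 0.0651) and when averaged over its probe sets (-0.38, 0.0503). Il1rap stood at -1.33, and at -0.53 when averaged over its probe sets.

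Beside the counts that follow, 18.1% of all genes were called lower and 14.5% higher. Of the 3 other beta common family chains 2 fell, Csf2rb2 and Il3ra, and Il5ra did not pass. Il3ra stood at -0.53 (limma adjusted p = 0.0463), a call lost in 10 of 18 alternatives. Of 10 class II receptor chains 4 fell, including Ifnlr1 at -1.76, Ifnar2 at -1.52 and the interferon gamma receptor chain Ifngr1 at -0.97, and Ifnar1 rose by 0.56. The Ifnar1 call was lost without pool 3 (0.54, adjusted p = 0.0714) and with the mean of its probe sets (0.29, 0.187). In the gp130 and interleukin 12 receptor list 1 gene of 7, Il6st, passed, and 2 passed with the replicate number as a block. Il17rb was the only gene of 5 in the interleukin 17 receptor list to pass (-0.58).

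Ligands, kinases and transcription factors of these pathways were examined next, with 14.5% of all genes called higher and 18.1% lower as background. Of 16 ligands of the listed receptors 13 did not pass, and Il15, which acts through the gamma chain, fell by 0.90 ± 0.17 on the log2 scale (SE; adjusted p = 0.00442). Most ligands were dim: without the dimmest 33.3% of genes 3 of the 16 were left, with 0 called higher and 1 lower. The called Csf3 (means of 5.18 in sorted and 4.81 in presort samples) and Tslp (4.03 and 4.55) lay under the array median. Of the 4 JAK genes Jak2 passed, at -0.54, and Jak3, the kinase that binds the gamma chain, did not, at -0.25 (adjusted p = 0.365). Of 6 STAT genes Stat4 fell by 1.24 ± 0.26 (SE; adjusted p = 0.00713), Stat2 rose by 0.49, and Stat5b, which acts below the interleukin 7 receptor, did not pass, at -0.32 (adjusted p = 0.104), but was called lower with the mean of its probe sets (-0.37, 0.0126).

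Several of these calls were lost when arrays were left out. Without pool 3 the values were -0.33 for Il3ra (-0.53 with all arrays), -0.50 for Il22ra2 (-0.66), -0.41 for Ghr (-0.38), -0.52 for Il17rb (-0.58), -0.40 for Tslp (-0.52), 0.36 for Csf3 (0.36), -0.47 for Jak2 (-0.54) and 0.50 for Stat2 (0.49), none of them called. These 8 genes lost their call in 4 to 10 of their alternatives.

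Of 15 inhibitors of cytokine signalling, among them the SOCS family, 7 rose, 0 fell and 8 did not pass, with a median of 0.46, against 14.5% of all genes called higher. In 4 of the alternatives 1 of them was called lower. Among those that did not pass, Socs3 stood at -0.59 (limma adjusted p = 0.0502) and Pias3 at -0.26. Socs5 rose most, with 9.66, 10.04 and 9.88 in sorted and 7.77, 8.01 and 7.69 in presort samples, a difference of 2.04 ± 0.14 (SE; 4.10-fold; limma adjusted p = 3.37e-05). Sh2b3, an adaptor that restrains JAK signalling, rose by 1.15 ± 0.22, Socs2 by 0.95 ± 0.21 and Socs7 by 0.92 ± 0.12 (SE). Averaged over probe sets, Socs2 rose by 0.38 and Socs7 by 0.48. The list count fell to 4 without pool 3 and to 3 with the beta-actin covariate, where Sh2b3 (0.78, adjusted p = 0.0507) and Socs2 (0.53, 0.0874) were not called. The Socs2 call was lost without pool 2 as well (0.91, 0.0859).

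**Figure D4:**
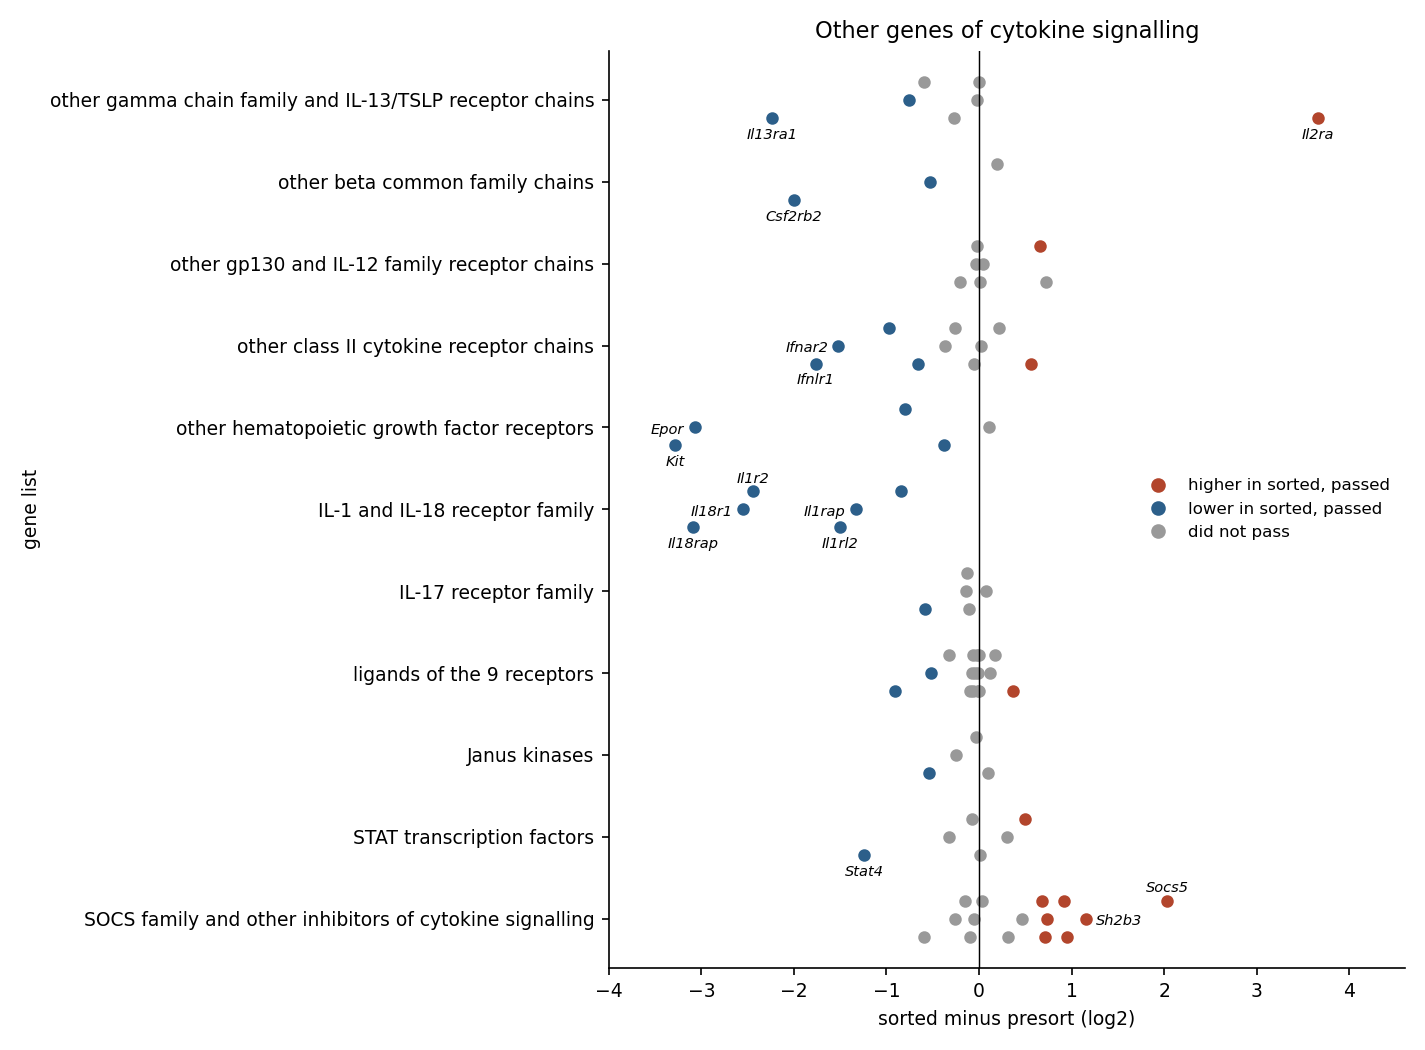
Sorted minus presort difference (log2, horizontal axis) of the 84 measured genes in the 11 lists of other cytokine signalling genes, each point 1 gene, coloured where called by limma. Genes called with a difference over 1 in either direction are named; Il2ra lies farthest to the right at 3.66 and Kit farthest to the left at -3.28.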

How the data were processed

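RNA of 6 marrow samples (3 sorted, 3 presort) was read on Affymetrix 3' expression arrays. The authors deposited linear-scale intensities, and the tool named per the submitters' processing notes is RMA, with the version not given in the sources used here. They run from 9.71 to 38492.08 on every array and share 1 distribution to within 0.181%, so a change in total RNA per cell leaves no trace, and precision is limited by how many arrays there are. Of 45101 probe sets, 64 were controls, 34945 carried 1 symbol, 932 several and 9160 none in the platform annotation used. Log2 was taken with no pseudocount, and the single-symbol probe set with the highest mean stood for each of 18193 genes.

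The groups were tested in R 4.3.3 by limma 3.58.1 (two-sided, lmFit then eBayes, 4 residual degrees of freedom before moderation), adjusted over all genes, or over all 45037 probe sets other than controls. On simulated data of this comparison with 18193 genes, 100 genes were changed by 1 (log2) and 100 by 2. Of these limma called 65% and 95%, with 5 false calls. In the deposited data 32.6% of genes were called, so the shares found there may differ. Per the labels each biological replicate is 1 pool of animals. Samples of 1 number were therefore read as pairs for the differences by pool and in the replicate block. The deviations of paired arrays from their group means had correlations over genes of 0.39 (pool 1), 0.20 (pool 2) and -0.03 (pool 3). The main comparison has no block, and the exact permutation tests did not use the pairs. Alternatives were a replicate block, leaving out arrays or pools, other probe set rules, centring, quantile normalization, a dim gene filter, a trended prior, array weights and a beta-actin covariate.

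The text names every listed receptor, up to 4 called genes per list and direction, and the nearest profile of each receptor. Il1r1, Il1rap, Il5ra, Il10rb, Jak3, Stat5b, Socs3 and Pias3 were added after their values were seen. The members, lists and motifs were chosen with earlier results of these data known. Promoters come from RefSeq (GRCm38.p6), protein sequences were not used here, and no genome build was used for the arrays. Python 3.11.15 with matplotlib 3.10.9 drew the plots.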

Additional observations from a re-analysis of the deposited data

How the results depend on the processing

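The 9 receptors were recomputed under 18 alternatives each, 162 values in all, of which 160 kept their direction and their side of the threshold, 2 lost the call, both of Il4ra as given above, and 0 reversed. With the replicate number as a block 2860 genes were higher and 3548 lower, and the block changed no call among the 9 receptors. Over the fits that left out an array or a pool, the count of all genes called higher ran from 1544 to 2608 (1544 without pool 3), of genes of the other lists from 5 to 13 (5 without pool 3) and of receptor probe sets from 3 to 6 (3 without pool 3). With each array centred on its median 5162 genes were higher and 66.7% of called genes were higher, against 44.4% without centring. The all-gene median shifted by 0.227 (log2), smaller than each of the 9 differences. With the beta-actin covariate 7 genes of the other lists were higher.

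Some of the probe sets and genes that did not pass also changed sign. Leaving out an array or a pool, 1422270_a_at of Il6ra ran from -0.19 to 0.049, 1423996_a_at of Il4ra from -0.16 to 0.62, 1456173_at of Il10ra from -0.066 to 0.098 and Il10rb from -0.16 to 0.0043. Il10rb was 0.17 with median centring and 0.042 with quantile normalization over genes. The cause of these changes was not tested. No detection calls were used, so dim probe sets could not be told from background.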
